A study of Homo sapiens with 12 samples.

Results

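PRMT5, its partner subunits, 3 further arginine methyltransferases, the p53 inhibitor MDM4 and the metabolic enzyme MTAP were followed as read counts through palbociclib resistance in a pair of melanoma cell lines. The 10 genes (PRMT5, WDR77, CLNS1A, RIOK1, COPRS, PRMT1, CARM1, PRMT7, MDM4 and MTAP) were chosen by name, as the rows whose Ensembl identifier carries one of these symbols. All 10 were found among 29735 genes counted in both lines, and all 10 passed the filter on low counts in every comparison. The resistant line A375AR991 was derived from A375 over 7 months, and CHL1AR991 from CHL1 over 3 months, each in palbociclib at stepwise higher doses and afterwards held in 4 µM of the drug. Palbociclib inhibits the cell cycle kinases CDK4 and CDK6. The A375 and CHL1 control lines grew in the same medium without the drug, and all 4 groups, resistant and control, spent 72 h without palbociclib before their RNA was taken. Each group holds 3 libraries made from total RNA. Nothing in the labels tells whether the libraries of a group came from separate cultures or whether a resistant line is 1 clone. The p-values therefore describe only how these libraries scatter, which may be technical.

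Arginine methyltransferases move methyl groups from S-adenosylmethionine (SAM) onto arginine side chains of histones, splicing proteins and signalling proteins. PRMT5 is the main enzyme of symmetric dimethylation and works as a complex with WDR77, while CLNS1A, RIOK1 and COPRS are adaptors that bring it different substrates. PRMT1 and CARM1 make asymmetric dimethylarginine, and PRMT7 makes monomethylarginine. Methylation of Sm proteins by PRMT5 supports correct splicing of MDM4, whose protein holds p53 in check together with MDM2. MTAP clears methylthioadenosine, a by-product of polyamine synthesis that inhibits PRMT5 when it builds up, and its gene lies beside CDKN2A in a stretch that melanomas often lose. All values below are RNA levels, and none of them measures a protein, an enzyme's activity or a splice form. In such bulk samples, fewer cells carrying an RNA and less of it per cell cannot be told apart.

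The libraries held between 25398920 and 29812686 counts, so a floor of 3 counts stood for 0.101 to 0.118 CPM (read counts scaled to library size). Levels are given as CPM normalised with TMM factors over all 12 libraries. Both lines are melanoma lines, and among 10 melanocyte and melanoma markers SOX10 averaged 296 CPM in A375AR991 and 401 CPM in A375, and 1032 CPM in CHL1AR991 and 1052 CPM in CHL1. The pigment genes PMEL, MLANA and TYR stayed below 1.1 CPM on average in all 4 groups. TYR was not listed among the A375 counts and was taken as 0 in A375AR991 and A375. The pigment gene DCT averaged 0.396 CPM in A375AR991 and 0.0879 CPM in A375, but 19.1 CPM in CHL1AR991 and 44.6 CPM in CHL1. TYRP1 averaged 1.74 CPM in A375AR991 and 0.21 CPM in A375, and 1.26 CPM in CHL1AR991 and 1.21 CPM in CHL1. Summed over the list, these markers reached 273 to 417 CPM in A375AR991 libraries and 439 to 598 CPM in A375 libraries, and 1250 to 1453 CPM in CHL1AR991 and 1240 to 1488 CPM in CHL1 libraries, with 6, 5, 7 and 8 of 10 genes averaging at least 1 CPM. Markers of fibroblasts summed to 48.5 to 57.4 CPM in A375AR991 and 21.3 to 25.5 CPM in A375, and to 11.6 to 14.1 CPM in CHL1AR991 and 17 to 23.1 CPM in CHL1, with 6, 5, 3 and 3 of 8 genes averaging at least 1 CPM in these groups. Markers of keratinocytes and epithelia ran from 480 to 539 CPM in A375AR991 and 399 to 491 CPM in A375, and from 31.7 to 35.3 CPM in CHL1AR991 and 33.4 to 34.7 CPM in CHL1, with 4 of 8 genes at that level in every group. KRT18 made up most of them in A375AR991 and A375, while EPCAM and CDH1 stayed below 0.5 CPM on average in every group. Leukocyte markers, in a list that also held the haemoglobin gene HBB, gave 52.7 to 70.5 CPM in A375AR991 and 48.3 to 74.4 CPM in A375. They gave 10.5 to 11.2 CPM in CHL1AR991 and 10.7 to 11.4 CPM in CHL1. In these groups 1, 1, 2 and 2 of 6 genes averaged at least 1 CPM. CD3E and HBB were at or near 0 in A375AR991 and A375 and were not listed among the CHL1 counts. CD68 made up most of this sum in A375AR991 and A375, averaging 61.9 and 58.9 CPM, against 1.34 CPM in CHL1AR991 and 1.24 CPM in CHL1. PTPRC, which leukocytes share, averaged 9.24 CPM in CHL1AR991 and 9.55 CPM in CHL1, and under 0.25 CPM in A375AR991 and A375. Endothelial markers stayed between 1.26 and 14.3 CPM in all libraries, with 1 of 4 genes averaging at least 1 CPM in each group. The markers KRT1 and PECAM1 matched no listed gene, and PDGFRA was not listed among the CHL1 counts, so they added nothing there. The part of these markers in the results below was not tested.

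In resistant A375, 3 of the 10 genes passed the test: PRMT1 rose, and CARM1 and MTAP fell. In resistant CHL1, 3 genes also passed: CLNS1A rose, and WDR77 and PRMT1 fell. PRMT5 and MDM4 did not pass in either line, although the 3 A375AR991 libraries all lay above the 3 A375 libraries for PRMT5. Calls rest on edgeR's quasi-likelihood test with p-values adjusted by Benjamini-Hochberg over all genes tested, at a threshold of 0.05. The share of all 18086 tested genes called in the A375 comparison was 28.3%, with 13.4% higher and 14.8% lower, so the share among the 10 genes is near the background. In CHL1 the share called was 21.2% of 17219 tested genes, with 9.11% higher and 12.1% lower. For 4 of the 10 genes the A375AR991 and A375 libraries did not overlap, against 42.8% of all genes tested, and in CHL1 the count was also 4, against 36.9%. The median log2 fold change of the 10 genes was -0.019 in A375 and 0.05 in CHL1, beside -0.00084 and 7.9e-05 over all genes tested.

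**Figure D1:**
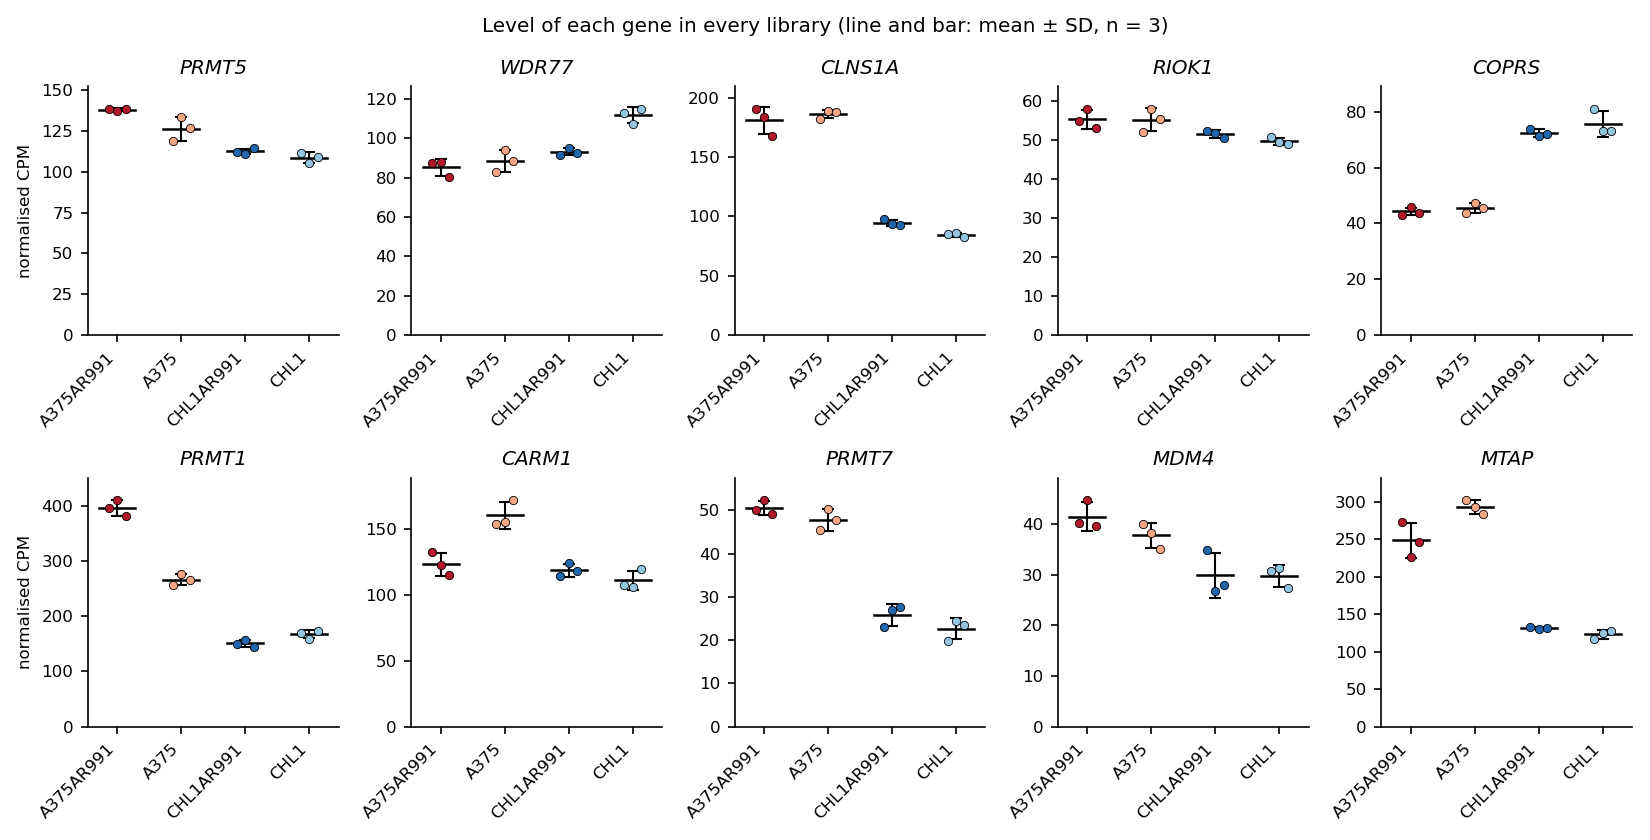
Normalised CPM (vertical axes, from 0) of the 10 genes in each of the 12 libraries, by group, with the mean and SD of 3 libraries as a line and bar. PRMT1 stands at 380.5 to 409.7 CPM in A375AR991 and 256 to 276 CPM in A375, while PRMT5 lies between 105 and 139 CPM in all 12 libraries.

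PRMT5, on chromosome 14 (ENSG00000100462), had 138, 137 and 139 CPM in the A375AR991 libraries, against 119, 133 and 127 CPM in the A375 libraries. The CHL1AR991 libraries held 112, 111 and 114 CPM, and the CHL1 libraries 112, 105 and 109 CPM. The A375AR991 libraries lay above all A375 libraries, but close to the highest of them, and the CHL1AR991 and CHL1 libraries overlapped. The log2 fold change was 0.13 in A375 (95% interval 0.00 to 0.25, adjusted p = 0.124, edgeR) and 0.05 in CHL1 (95% interval -0.05 to 0.14, adjusted p = 0.492). With upper-quartile scaling the A375 value became 0.17 with an adjusted p of 0.044, and it was not called under any other alternative tried. The difference between both effects was 0.08 on the log2 scale (adjusted p = 0.481). In order of mean level, A375AR991 (138 ± 0.81 CPM) stood above A375 (126 ± 7.15), and A375 above CHL1AR991 (112 ± 1.69), without overlap at either step, while CHL1AR991 and CHL1 (108 ± 3.27) overlapped (SD, n = 3 each). The antisense gene PRMT5-AS1 overlaps PRMT5, and since the library kit does not mark the strand, reads from the stretch they share cannot be told apart.

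The promoter of PRMT5 is known to be driven through CCAAT boxes bound by the factor NF-Y, and the 250 bases before the start of PRMT5 are shown to place these boxes beside the nearly level expression above. The sequence, from RefSeq (GRCh38.p14, chr14:22929377-22929626, minus strand), is written 5′ to 3′ with each CCAAT or its reverse complement ATTGG in capitals:
PRMT5: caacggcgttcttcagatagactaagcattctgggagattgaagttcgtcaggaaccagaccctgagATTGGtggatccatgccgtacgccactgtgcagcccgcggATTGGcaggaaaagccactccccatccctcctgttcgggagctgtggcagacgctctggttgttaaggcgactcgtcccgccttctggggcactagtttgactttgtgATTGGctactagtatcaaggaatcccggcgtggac
It holds 3 matches on either strand. At least 3 matches in a window of this length were found in 2.93% of 35116 RefSeq promoters, and at least 1 in 32.0%. A match describes these letters and does not show that the factor binds.

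WDR77, the constant partner that PRMT5 needs for full activity, lies on chromosome 1 (ENSG00000116455). Its level fell to 91.7, 95 and 92.7 CPM in CHL1AR991, against 113, 107 and 115 CPM in CHL1, so the groups stood apart. The log2 fold change was -0.27 ± 0.04 (SE, adjusted p = 0.00136, edgeR), a level 16.8% lower, and this call was kept under every alternative run. The 20 nearest tested protein-coding genes along the chromosome had a median change of -0.12, with 5 of them called lower and 0 called higher. The start of WDR77 overlaps that of ATP5PB on the other strand, and the end of CARM1 overlaps that of YIPF2, so some of their reads can be mixed. In A375AR991 the libraries held 87.4, 88.0 and 80.1 CPM, against 83, 94.1 and 88.7 CPM in A375, which overlapped (log2 fold change -0.06, 95% interval -0.21 to 0.09, adjusted p = 0.577). The effects in both lines differed by 0.20 on the log2 scale, which did not pass the test (adjusted p = 0.0826). It passed with upper-quartile scaling (adjusted p = 0.0368), with a minimum of 1 CPM in 3 libraries (adjusted p = 0.0431), without A375 replicate 2 (adjusted p = 0.0204) and without A375AR991 replicate 3 (adjusted p = 0.0299).

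A ratio of read counts within a library does not depend on how libraries are scaled, so PRMT5 was also set against its partner. The count of PRMT5 per count of WDR77 was 1.58, 1.56 and 1.73 in A375AR991, against 1.43, 1.41 and 1.43 in A375. In CHL1AR991 it was 1.22, 1.17 and 1.23, against 0.987, 0.982 and 0.945 in CHL1. All 3 resistant libraries lay above all 3 control libraries in each line. The log2 difference was 0.19 in A375 and 0.31 in CHL1, each with an exact two-sided permutation p of 0.1, the smallest that 3 against 3 libraries can give, and 0.133 after adjustment over the 4 ratio tests made. The genes differ in length, so a ratio says nothing of how many protein molecules of each kind a cell holds.

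**Figure D2:**
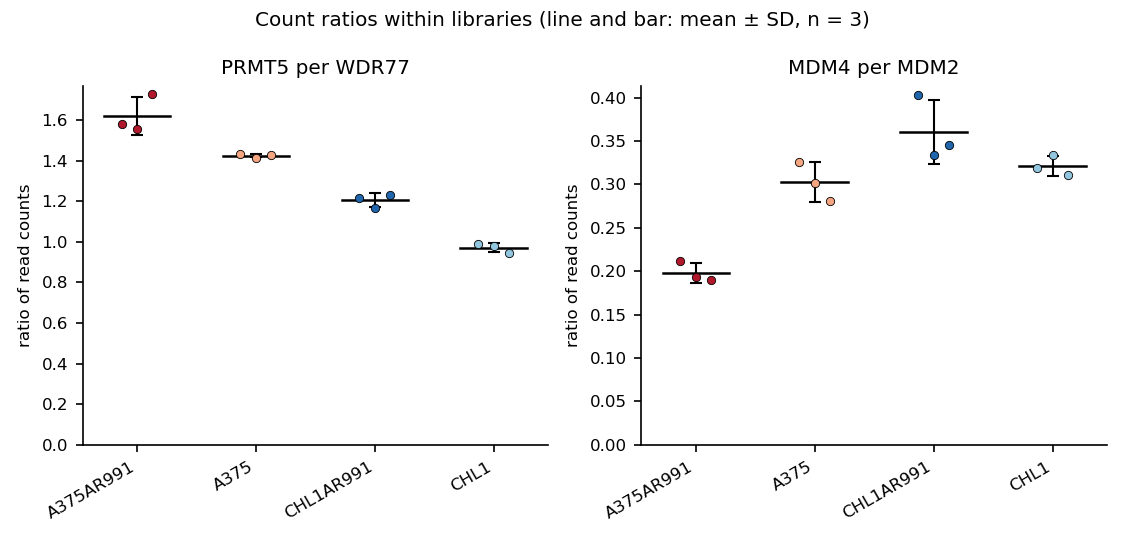
Ratio of read counts (vertical axes, from 0) of PRMT5 to WDR77 and of MDM4 to MDM2 in each library by group, with the mean and SD of 3 libraries. PRMT5 per WDR77 averages 1.62 in A375AR991 and 1.42 in A375, and 1.21 in CHL1AR991 and 0.971 in CHL1, while MDM4 per MDM2 averages 0.198 in A375AR991 and 0.303 in A375.

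CLNS1A (pICln, chromosome 11), which presents Sm proteins to the PRMT5 complex, had 97.8, 93.6 and 92.7 CPM in CHL1AR991, against 85.1, 86.1 and 82.3 CPM in CHL1. These groups did not overlap, and the log2 fold change was 0.16 ± 0.05 (SE, adjusted p = 0.0321, edgeR). The call was lost without any 1 of the 3 CHL1 libraries or without CHL1AR991 replicate 1 or 3, with adjusted p-values of 0.0761, 0.0551, 0.0819, 0.0891 and 0.0518 in that order. It was also lost when the contrast was read from the fit of all 12 libraries (adjusted p = 0.0514). In A375AR991 the level of CLNS1A was 191, 184 and 168 CPM, against 182, 189 and 188 CPM in A375, with overlapping libraries (log2 fold change -0.04, adjusted p = 0.646). The difference of effects between the lines was -0.21 (adjusted p = 0.054). It passed without A375AR991 replicate 1 (adjusted p = 0.0278) and in the fit that blocks on replicate number (adjusted p = 0.0429). AQP11 lies within the annotated span of CLNS1A on the other strand, and strand was not recorded.

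RIOK1, the adaptor that competes with CLNS1A for PRMT5 and brings it nucleolin, held 53.2 to 58.1 CPM in A375AR991 and 52.2 to 58.1 CPM in A375. It ran from 50.5 to 52.4 CPM in CHL1AR991 and from 49.0 to 50.8 CPM in CHL1. Its log2 fold change was 0.00 in A375 (95% interval -0.14 to 0.15, adjusted p = 0.975, edgeR) and 0.05 in CHL1 (95% interval -0.06 to 0.16, adjusted p = 0.556). COPRS, which directs PRMT5 to histone H4 in the nucleus, had 43.2 to 45.9 CPM in A375AR991 and 43.9 to 47.5 CPM in A375. Its CHL1AR991 libraries held 71.4 to 73.9 CPM, and its CHL1 libraries 73.1 to 81.1 CPM. The log2 fold change of COPRS was -0.04 in A375 (95% interval -0.18 to 0.09, adjusted p = 0.662) and -0.07 in CHL1 (95% interval -0.18 to 0.05, adjusted p = 0.414). For both adaptors the resistant and control libraries overlapped in each line, and the 4 intervals together run from -0.18 to 0.16.

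PRMT1, the main asymmetric dimethyltransferase of mammalian cells, showed the largest change among the 10 genes in A375 and moved the other way in CHL1. PRMT1 (chromosome 19, ENSG00000126457) rose to 396, 409.7 and 380.5 CPM in A375AR991, against 256, 276 and 265 CPM in A375. The lowest A375AR991 library lay far above the highest A375 library, with a log2 fold change of 0.57 ± 0.05 (SE, adjusted p = 0.000101, edgeR), 1.49-fold. In CHL1AR991 the level was 149, 158 and 145 CPM, against 169.9, 159 and 173 CPM in CHL1. There the groups stood apart by a narrow gap, with a log2 fold change of -0.16 ± 0.05 (adjusted p = 0.0307). That call was lost without CHL1 replicate 1 (adjusted p = 0.114), CHL1 replicate 3 (0.119), CHL1AR991 replicate 1 (0.0647) or CHL1AR991 replicate 3 (0.159), and in the fit of all 12 libraries (0.0619). The effects in both lines differed by 0.73 ± 0.07 on the log2 scale (adjusted p = 6.71e-06). Of the 20 nearest tested genes around PRMT1, 15 were called higher and 0 lower in A375AR991, with a median log2 fold change of 0.41, while in CHL1AR991 the median was -0.07, with 1 called higher and 4 lower. The end of PRMT1 overlaps the start of ADM5, and their reads can be mixed.

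The 250 bases before the start of PRMT1 are shown since this member changed most in A375 and its promoter is the second of the 10 with more than 1 CCAAT match. The sequence, from RefSeq (GRCh38.p14, chr19:49677021-49677270, plus strand), is written 5′ to 3′ with each CCAAT or ATTGG in capitals:
PRMT1: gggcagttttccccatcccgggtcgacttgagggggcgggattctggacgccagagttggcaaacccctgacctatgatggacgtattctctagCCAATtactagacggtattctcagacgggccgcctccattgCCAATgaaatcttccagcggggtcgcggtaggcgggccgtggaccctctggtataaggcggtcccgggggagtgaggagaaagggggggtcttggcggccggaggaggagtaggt
It holds 2 matches, and at least 2 were found in 9.53% of the 35116 promoters. MTAP had 1 match, and WDR77, CLNS1A, RIOK1, COPRS, CARM1, PRMT7 and MDM4 had 0 in their windows, which says only that these letters are not there. CARM1 and PRMT7 were each searched in 2 windows, for 2 annotated starts.

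CARM1 (chromosome 19), a coactivator that methylates histone H3, fell in A375AR991 to 133, 123 and 115 CPM, against 154, 156 and 172 CPM in A375. The groups did not overlap, and the log2 fold change was -0.38 ± 0.07 (SE, adjusted p = 0.00338, edgeR), a level 23.1% lower. Its 20 nearest tested genes had a median log2 fold change of -0.36, and 14 of them were called lower and 0 higher, so PRMT1 and CARM1, on the same chromosome, moved in opposite directions, each with its neighbours. In CHL1AR991 CARM1 had 114, 124 and 119 CPM, against 108, 106 and 120 CPM in CHL1, with overlapping libraries (log2 fold change 0.10, 95% interval -0.02 to 0.21, adjusted p = 0.246). The difference of effects was -0.48 ± 0.09 (adjusted p = 0.00167). PRMT7 (chromosome 16) held 49.2 to 52.4 CPM in A375AR991 and 45.4 to 50.4 CPM in A375, and 23.0 to 27.7 CPM in CHL1AR991 and 19.9 to 24.5 CPM in CHL1. Its log2 fold change was 0.08 in A375 (adjusted p = 0.388) and 0.19 in CHL1 (95% interval -0.02 to 0.39, adjusted p = 0.186), and the groups overlapped in both lines.

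**Figure D3:**
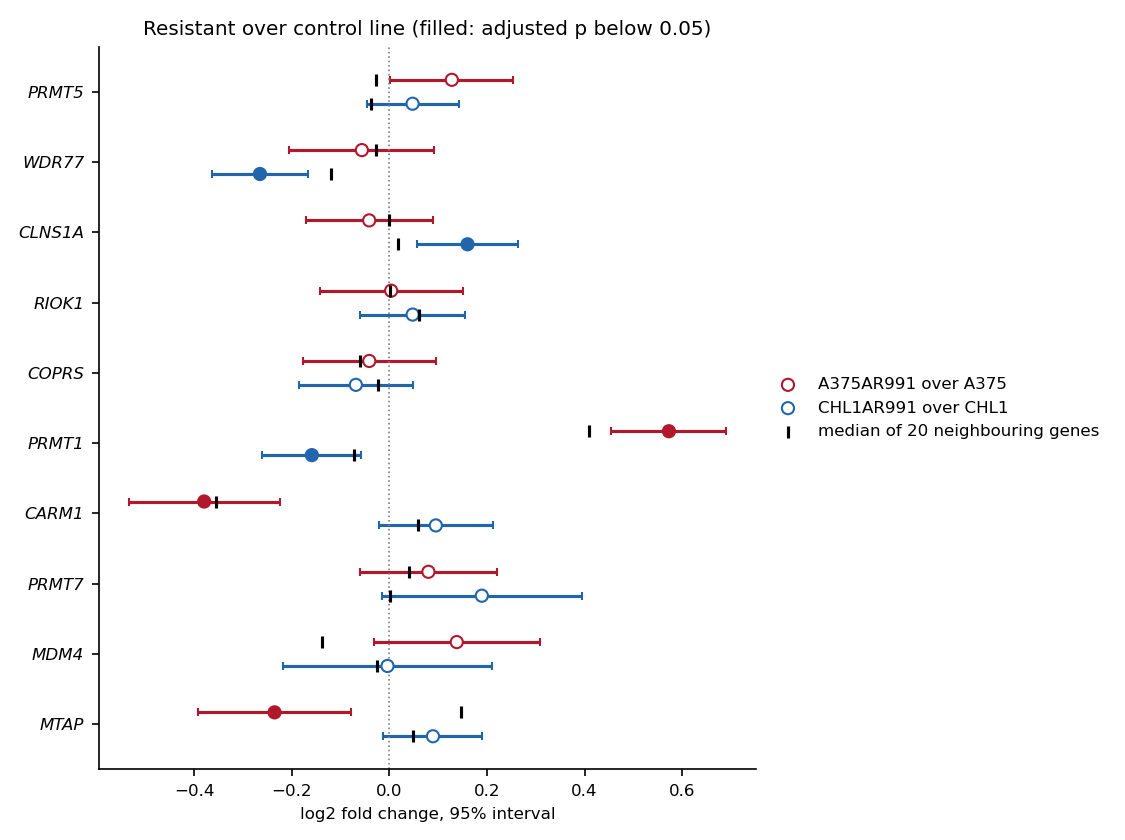
Log2 fold change (horizontal axis) of A375AR991 over A375 (red) and of CHL1AR991 over CHL1 (blue) for each of the 10 genes, with 95% intervals; filled points passed an adjusted p of 0.05, and black ticks mark the median of the 20 nearest tested genes. PRMT1 at 0.57 and CARM1 at -0.38 in A375 lie near their neighbours' medians of 0.41 and -0.36, while MTAP at -0.24 lies on the other side of 0 from its neighbours at 0.15.

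MDM4 (chromosome 1, ENSG00000198625) is the relative of MDM2 that binds p53 and blocks its activity. Its level was 40.3, 44.8 and 39.6 CPM in A375AR991, against 40.0, 38.2 and 35.2 CPM in A375. In CHL1AR991 it was 35.0, 26.7 and 28 CPM, against 30.7, 31.4 and 27.4 CPM in CHL1. The libraries of resistant and control cells overlapped in both lines. The log2 fold change was 0.14 in A375 (95% interval -0.03 to 0.31, adjusted p = 0.215, edgeR) and -0.0037 in CHL1 (95% interval -0.22 to 0.21, adjusted p = 0.987), and the difference between them was 0.14 (adjusted p = 0.532). No alternative tried called MDM4 in either line.

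The counts join all MDM4 transcripts, so they cannot show whether exon 6 was kept or skipped, the choice through which PRMT5 is known to act on MDM4. Skipping this exon shifts the reading frame and gives a short, unstable product. The exon is shown within the spliced transcript, between the last 20 bases of exon 5 and the first 20 of exon 7 in lower case. In GENCODE release 29 (GRCh38, plus strand) exon 6 of the transcript MDM4-203 lies at chr1:204537430-204537497, the place of the capitals alone, and is printed in capitals, 5′ to 3′:
MDM4: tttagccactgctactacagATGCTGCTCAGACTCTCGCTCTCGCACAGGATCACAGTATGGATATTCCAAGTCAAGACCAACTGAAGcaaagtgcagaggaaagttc
The exon has 68 bases in a transcript of 10073 bases and 11 exons, 0.675% of its length. Of 17 annotated MDM4 transcripts, 3 join exon 5 to exon 7 directly.

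MDM2, the ubiquitin ligase for p53 and a p53 target itself, averaged 210.2 ± 20.6 CPM in A375AR991 and 125 ± 1.96 CPM in A375, and 82.7 ± 3.67 CPM in CHL1AR991 and 92.7 ± 4.27 CPM in CHL1 (SD, n = 3 each). Its log2 fold change was 0.75 ± 0.07 in A375 (SE, adjusted p = 0.000143, edgeR) and -0.17 ± 0.05 in CHL1 (adjusted p = 0.0441). The CHL1 call was lost without CHL1 replicate 1 (0.163) or 2 (0.137) or CHL1AR991 replicate 2 (0.146) or 3 (0.157), with RLE (0.0505) or upper-quartile factors (0.0752), with DESeq2 (0.0576) and in the fit of all 12 libraries (0.12). The count of MDM4 per count of MDM2 was 0.212, 0.193 and 0.190 in A375AR991, against 0.326, 0.302 and 0.281 in A375, without overlap. The log2 difference was -0.61, with an exact two-sided permutation p of 0.1, the smallest possible with 3 against 3 libraries (0.133 adjusted over the 4 ratio tests). In CHL1AR991 the ratio was 0.403, 0.334 and 0.345, against 0.319, 0.334 and 0.311 in CHL1, with a log2 difference of 0.16 (exact permutation p = 0.2, adjusted 0.2).

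MTAP (chromosome 9, ENSG00000099810) was well expressed in all 4 groups. It held 273, 226 and 246 CPM in A375AR991, against 302, 293 and 283 CPM in A375. These groups did not overlap, and the log2 fold change was -0.24 ± 0.07 (SE, adjusted p = 0.0321, edgeR). The call was lost without A375 replicate 1, 2 or 3 (adjusted p of 0.0799, 0.0623 and 0.0596) and without A375AR991 replicate 2 or 3 (0.122 and 0.117), and with upper-quartile scaling (-0.19, adjusted p = 0.0596). In CHL1AR991 MTAP had 133, 129.9 and 132 CPM, against 117, 125 and 128 CPM in CHL1. These groups did not overlap either, but the log2 fold change of 0.09 (95% interval -0.01 to 0.19) did not pass the test (adjusted p = 0.208). The difference of effects was -0.33 ± 0.09 (adjusted p = 0.0126), and it missed the threshold without A375AR991 replicate 3 (-0.29, adjusted p = 0.051).

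Other genes of the 9p21 region around MTAP did not follow it in A375. Of 8 listed genes, 6 were tested in A375, with 3 called higher and 0 lower, and all 8 in CHL1, with 2 called higher and 0 lower. Of all genes tested, 13.4% were called higher in A375 and 9.11% in CHL1. In A375AR991 ELAVL2, a neuronal RNA-binding protein, had 18.3 ± 2.26 CPM, against 6.01 ± 1.26 CPM in A375 (SD, n = 3 each). The transcription factor gene DMRTA1 had 9.68 ± 0.646 CPM in A375AR991 and 4.05 ± 0.7 CPM in A375. Their log2 fold changes were 1.60 (adjusted p = 0.000163, edgeR) and 1.26 (adjusted p = 0.000306), and FOCAD changed by 0.37 in A375 (adjusted p = 0.0028) and 0.23 in CHL1 (adjusted p = 0.014, or 0.0503 without CHL1 replicate 1). The 20 nearest tested genes of MTAP had a median of 0.15 in A375, with 7 called higher and 2 lower. CDKN2B had 0 counts in the A375AR991 libraries and 2 counts in all in the A375 libraries, at or under the floor of 3 counts per library, while MTAP held 22044 and 23567 counts summed over the same groups. CDKN2B averaged 8.1 ± 0.513 CPM in CHL1AR991 and 6.06 ± 0.281 CPM in CHL1 (SD, n = 3 each, log2 fold change 0.41, adjusted p = 0.00898). CDKN2A averaged 2.96 ± 0.553 CPM in A375AR991 and 2.24 ± 0.761 CPM in A375. In CHL1AR991 it averaged 23.8 ± 1.22 CPM, and 22.4 ± 1.85 CPM in CHL1. The adjusted p-values for CDKN2A were 0.279 in A375 and 0.452 in CHL1. Without A375 replicate 3 its A375 log2 fold change was 0.72 (adjusted p = 0.0445).

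The lines were tested against each other for the resistance effect itself, as (A375AR991 minus A375) minus (CHL1AR991 minus CHL1) in a fit of all 12 libraries. Of the 10 genes, 3 passed: PRMT1 with a positive difference and CARM1 and MTAP with negative ones. Over all 19241 genes tested the share called was 23.6%, so 3 of 10 is again near the background. For PRMT5, RIOK1, COPRS, PRMT7 and MDM4 the difference ran from -0.11 to 0.14 on the log2 scale, with adjusted p-values of 0.481 to 0.88.

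The same fit compared the lines at rest and after resistance. Between the control lines all 10 genes differed and had libraries that did not overlap, as did 77.2% of all genes, 8 being higher in A375 and 2, WDR77 and COPRS, lower in A375 than in CHL1. Of all 19241 genes 75.6% were called in this comparison, with 38.2% higher in A375, so such differences are common between these lines. The median log2 fold change of the 10 genes was 0.44, beside 0.03 over all genes. MTAP had the largest, at 1.25 ± 0.06 (SE, adjusted p = 8.04e-11, edgeR), followed by CLNS1A at 1.14 ± 0.05 (adjusted p = 2.84e-11) and PRMT7 at 1.08 ± 0.09 (adjusted p = 2.03e-08). COPRS was the lowest, at -0.73 ± 0.06 (adjusted p = 1.34e-08). The call for RIOK1 (0.15, adjusted p = 0.0239) was lost without a low-count filter (0.082) and without A375 replicate 2 or 3 (0.102 and 0.0593) or CHL1 replicate 2 or 3 (0.065 and 0.0791). The neighbours of PRMT7 had a median of 1.01, with 17 of 20 called higher in A375, whereas those of CLNS1A had a median of -0.18. Those of MTAP had a median of 0.43, with 11 of 20 called higher and 3 lower, and those of COPRS -0.06.

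Between the resistant lines, A375AR991 against CHL1AR991, 6 genes were higher and 1 lower in A375AR991, and 3 did not pass, beside 76.6% of all genes called, 38% higher and 38.6% lower. The libraries of 9 of the 10 did not overlap, against 79.2% of all genes. PRMT1 had the largest difference, at 1.39 ± 0.05 on the log2 scale (SE, adjusted p = 2.59e-12, edgeR), while the control lines differed by 0.67 ± 0.05 (adjusted p = 1.28e-08). The 20 nearest tested genes of PRMT1 had a median of 1.25 between the resistant lines, with 18 called higher and 1 lower. Between the control lines their median was 0.97, above that of PRMT1 itself, with 17 called higher and 3 lower. For CARM1 the resistant lines differed by 0.05 (95% interval -0.09 to 0.19, adjusted p = 0.472), against 0.53 ± 0.07 (adjusted p = 2.91e-06) between the control lines. PRMT5 was higher in A375AR991 than in CHL1AR991 by 0.29 ± 0.05 (adjusted p = 5.12e-05) and in A375 than in CHL1 by 0.22 ± 0.05 (adjusted p = 0.000806). MDM4 differed by 0.48 ± 0.10 (adjusted p = 0.000345) and 0.34 ± 0.10 (adjusted p = 0.00502) in the same comparisons. WDR77 did not pass between the resistant lines (-0.13, adjusted p = 0.0512), but it was called lower in A375AR991 with no low-count filter (-0.15, adjusted p = 0.0392), with the replicate block (-0.13, 0.0387) and without A375 replicate 1 (-0.13, 0.0356). Its sign turned with upper-quartile scaling (0.02, adjusted p = 0.753), under which RIOK1 (0.25) and CARM1 (0.20) were called. That scaling placed the median of all genes at 0.14 between the control lines and 0.16 between the resistant lines, in place of 0.03 and 0.0067. RIOK1 was called between the resistant lines under 2 of 6 other settings, upper-quartile scaling among them. It was also called in 2 of 12 fits that left out 1 library (adjusted p down to 0.0354). The libraries of each line were deposited together, and a difference in preparation between the lines cannot be told apart from the lines themselves.

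**Figure D4:**
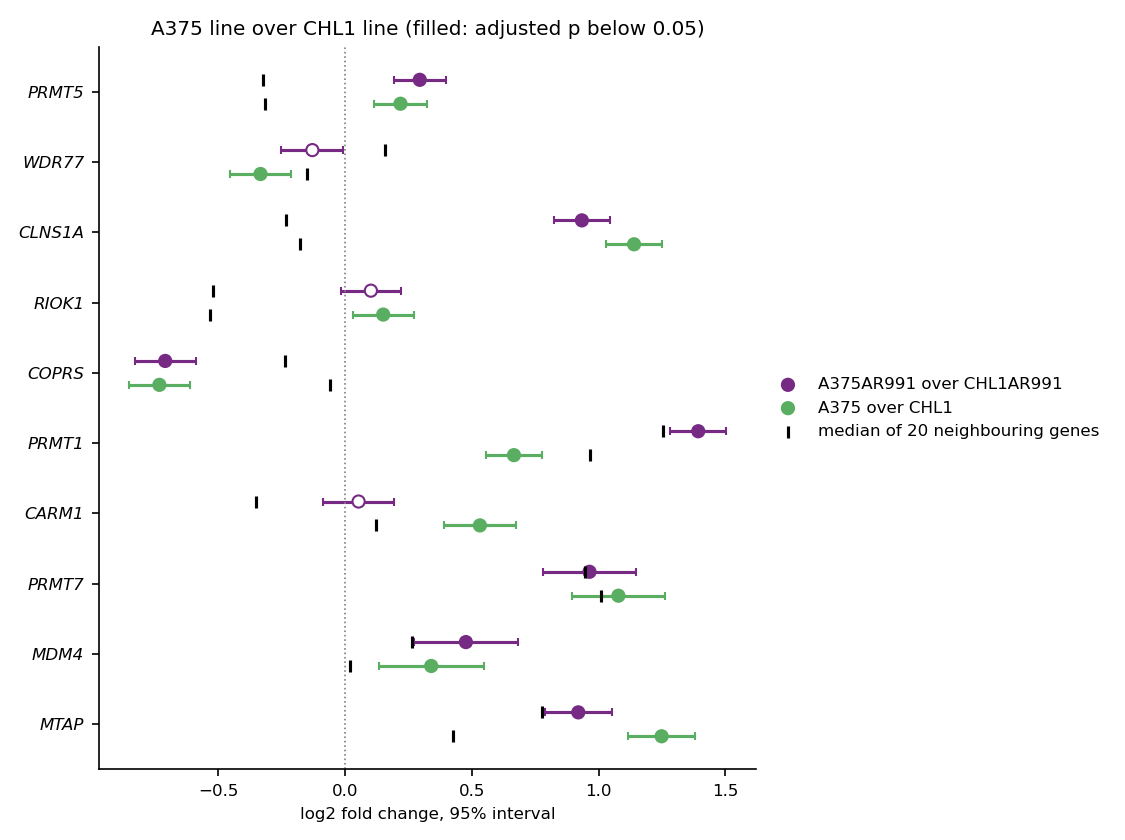
Log2 fold change (horizontal axis) of A375AR991 over CHL1AR991 (purple) and of A375 over CHL1 (green) for each of the 10 genes, with 95% intervals; filled points passed an adjusted p of 0.05, and black ticks mark the median of the 20 nearest tested genes. PRMT1 stands at 1.39 between the resistant lines and 0.67 between the control lines, and CARM1 at 0.05 and 0.53.

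Genes that work around the members were read from lists that, like the members, were chosen with earlier results of these data known. Of 6 other arginine methyltransferases, 0 were called higher and 1 lower in A375, and 1 higher and 1 lower in CHL1. Over all genes tested, 28.3% were called in A375 and 21.2% in CHL1, in either direction. PRMT2, which has weak activity of its own, had 40.2 ± 4.22 CPM in A375AR991 and 54.3 ± 2.35 CPM in A375, and 104 ± 1.51 CPM in CHL1AR991 and 91.4 ± 2.62 CPM in CHL1 (SD, n = 3 each). Its log2 fold change was -0.44 in A375 (adjusted p = 0.00419, edgeR) and 0.18 in CHL1 (adjusted p = 0.0156), the second lost without CHL1 replicate 1 (adjusted p = 0.0724) and in the fit of all 12 libraries (0.0816). The medians of its 20 nearest tested genes were 0.03 in A375 and 0.16 in CHL1. PRMT6, which methylates histone H3, had 22.8 ± 0.214 CPM in CHL1AR991 and 27.2 ± 2.78 CPM in CHL1. Its log2 fold change in CHL1 was -0.25 (adjusted p = 0.039). This call was lost without CHL1 replicate 2 or 3 or any 1 of the 3 CHL1AR991 libraries, with adjusted p-values of 0.0741 to 0.158, and its neighbour median was -0.16.

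Sm proteins are the main splicing substrates of PRMT5, and the SMN complex loads them onto small nuclear RNAs. Of 13 genes of this list, 1 was called higher and 1 lower in A375, with 2 higher and 1 lower in CHL1. The shares called over all genes tested were 28.3% in A375 and 21.2% in CHL1. GEMIN7, a subunit of the SMN complex, had 29.8 ± 2.5 CPM in A375AR991 and 22.0 ± 0.299 CPM in A375, against 8.86 ± 0.579 CPM in CHL1AR991 and 11.2 ± 1.14 CPM in CHL1 (SD, n = 3 each). It rose by 0.44 in A375 (adjusted p = 0.00284, edgeR) and changed by -0.34 in CHL1 (adjusted p = 0.029), the second lost without CHL1 replicate 2 or 3 or CHL1AR991 replicate 1 or 3 (adjusted p of 0.0715 to 0.108). LSM4, an Sm-like protein that PRMT5 also methylates, went the other way, by -0.35 in A375 (adjusted p = 0.00307) and 0.23 in CHL1 (adjusted p = 0.00305). Both genes lie on chromosome 19, and the medians of their 20 nearest tested genes in A375 were 0.47 and -0.40. GEMIN8, of the same complex, rose by 0.31 in CHL1 (adjusted p = 0.0142, or 0.0541 without CHL1 replicate 2). SMN1 did not pass in either line (-0.10 in A375 and 0.04 in CHL1), and its reads may be shared with its near-identical copy SMN2.

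The SAM cycle supplies the methyl donor, and the salvage pathway that begins with MTAP returns methionine. Of 13 genes of this list, 2 were called higher and 4 lower in A375, with 2 higher and 1 lower in CHL1. Beside these counts stand 28.3% of all tested genes called in A375 and 21.2% in CHL1. Of the salvage enzymes downstream of MTAP, MRI1 and ADI1 fell in A375AR991. MRI1 had 65.5 ± 1.28 CPM, against 94.9 ± 2.79 CPM in A375, and ADI1 100.3 ± 2.16 CPM, against 130.0 ± 6.1 CPM in A375 (SD, n = 3 each). Their log2 fold changes were -0.53 (adjusted p = 0.000144, edgeR) and -0.37 (adjusted p = 0.0011), beside neighbour medians of -0.36, with 9 of 20 called lower and 1 higher, and -0.05. ENOPH1, another salvage enzyme, was not called in A375 (0.08, adjusted p = 0.45). In CHL1, ADI1 rose by 0.18 (adjusted p = 0.00955) and ENOPH1 by 0.16 (adjusted p = 0.0313), the second lost in the fit of all 12 libraries (adjusted p = 0.0868) and without CHL1 replicate 2 or 3 or CHL1AR991 replicate 1 or 2 (0.0598 to 0.127). MAT2A, which makes SAM, rose by 0.23 in A375 (adjusted p = 0.0187, or 0.0656 without A375AR991 replicate 2). The spermine synthase gene SMS rose by 0.20 in A375 (adjusted p = 0.0246), lost without A375 replicate 1 or 3 or any 1 of the 3 A375AR991 libraries (adjusted p of 0.0533 to 0.0776), beside a neighbour median of 0.15. AHCYL1, a relative of the enzyme that clears S-adenosylhomocysteine, fell by 0.33 in CHL1 (adjusted p = 0.000112), beside a neighbour median of -0.25 with 12 of 20 called lower and 0 higher. Its change of -0.17 in A375 (adjusted p = 0.0451) was lost without any 1 A375 library or A375AR991 replicate 1 or 3 (adjusted p of 0.0673 to 0.172), with upper-quartile factors (0.13), with no filter (0.0635) and with DESeq2 (0.0616).

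Among 5 readers of methylated arginine, 0 were called higher and 2 lower in A375, and 1 higher and 0 lower in CHL1. The background was 28.3% of all tested genes called in A375 and 21.2% in CHL1. In A375 TDRD3, which binds asymmetric marks, changed by -0.41 (adjusted p = 0.013, edgeR) and the splicing factor SMNDC1 by -0.33 (adjusted p = 0.00464), beside neighbour medians of -0.37 and -0.56. The TDRD3 call was lost without A375AR991 replicate 2 (adjusted p = 0.0504) or 3 (0.0594). PHF1, a Polycomb-associated protein, rose by 0.42 in CHL1 (adjusted p = 0.00141).

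Partners of MDM4 and targets of p53 formed the list with the largest share called in A375. Of 24 genes, 19 were called higher and 0 lower in A375AR991, beside 13.4% of all genes called higher, and the median log2 fold change was 0.54. In CHL1AR991 0 of 22 tested were called higher and 5 lower, beside 12.1% of all genes called lower, and the median was 0.0015. Under the alternatives these counts were 18 to 20 in A375, 4 to 5 in CHL1 and 15 to 20 for the difference between the lines, which was called positive for 19 of 24 genes, beside 11.7% of all genes. BAX, which opens mitochondria in apoptosis, had 204 ± 11.3 CPM in A375AR991 and 105 ± 9.83 CPM in A375, and 32.7 ± 2.7 CPM in CHL1AR991 and 41.4 ± 3.01 CPM in CHL1 (SD, n = 3 each). Its log2 fold change was 0.96 in A375 (adjusted p = 5.55e-05, edgeR) and -0.34 in CHL1 (adjusted p = 0.00602). ZMAT3, an RNA-binding growth suppressor, changed by 0.86 in A375 (adjusted p = 2.49e-05) and -0.27 in CHL1 (adjusted p = 0.00972), and the nuclease AEN by 0.85 (adjusted p = 3.5e-05) and 0.12 (adjusted p = 0.467). In CHL1 the DNA damage sensor XPC fell by 0.45 (adjusted p = 0.000197) and SESN1 by 0.37 (adjusted p = 0.00456), beside neighbour medians of -0.33 and 0.06. The neighbour medians in CHL1 were -0.24 for ZMAT3, with 11 of 20 called lower and 2 higher, and -0.12 for BAX and MDM2. Of the XPC neighbours in CHL1, 15 of 20 were called lower and 0 higher. In A375 the neighbour medians were 0.20 for BAX, with 6 of 20 called higher and 1 lower, and 0.08 for ZMAT3. They were 0.05 for AEN, 0.07 for MDM2, -0.08 for XPC and 0.0032 for SESN1 in A375. XPC and SESN1 were called higher in A375, by 0.32 (adjusted p = 0.00542) and 0.63 (adjusted p = 0.000456).

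**Figure D5:**
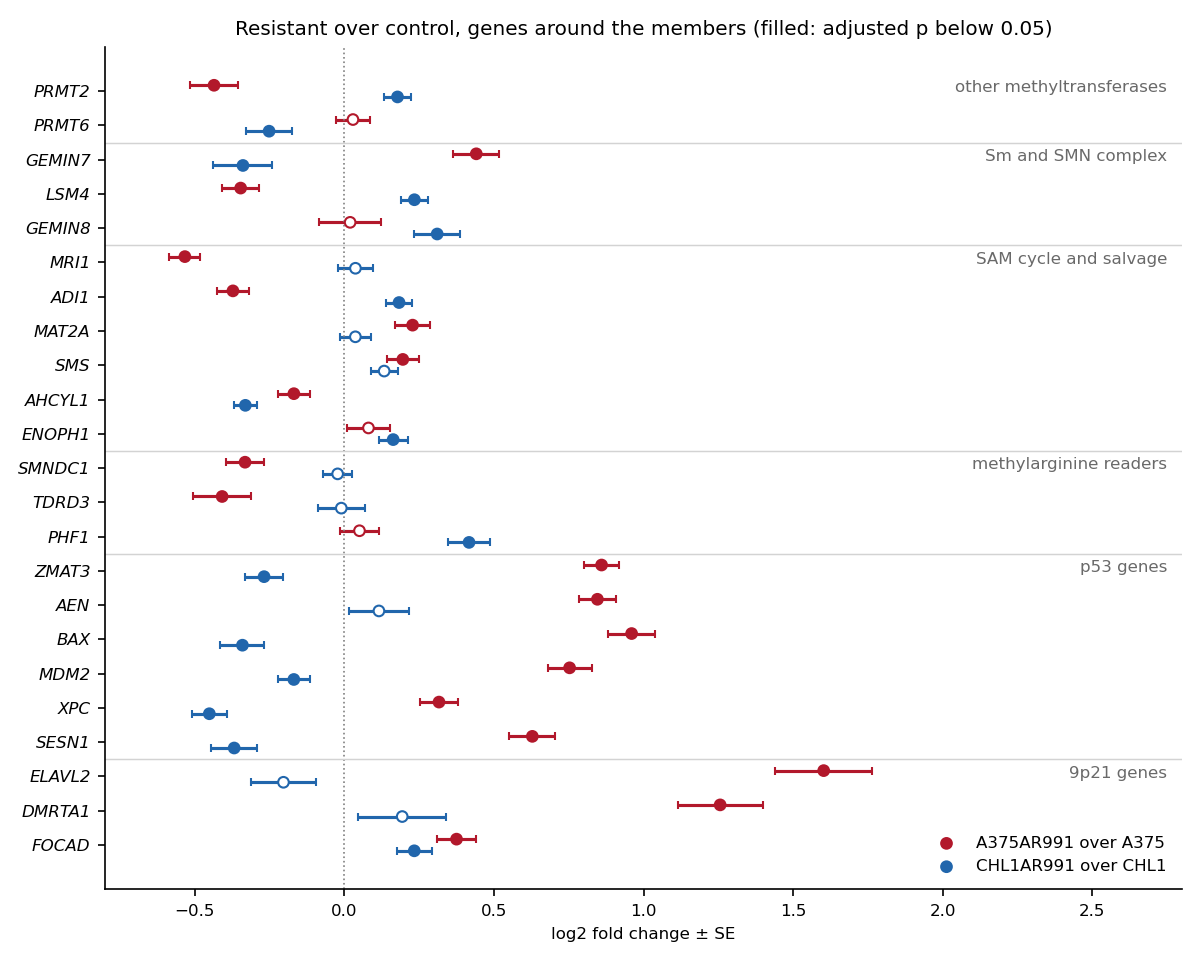
Log2 fold change with its SE (horizontal axis) of A375AR991 over A375 (red) and CHL1AR991 over CHL1 (blue) for named genes of 6 lists around the 10 members; filled points passed an adjusted p of 0.05. The 6 p53 genes shown lie between 0.32 and 0.96 in A375 and between -0.45 and 0.12 in CHL1.

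The genes whose levels most resembled PRMT5 over the 12 libraries, by Pearson's r of log2 CPM among 19241 genes, were MRPL39 (0.986), TCEA1 (0.982) and the pseudogene UQCRFS1P1 (0.981). For MDM4 they were ZNG1F (0.955), the identifier ENSG00000248458 (0.954) and MIPOL1 (0.953). These are descriptions over 12 libraries that fall into 4 groups of shared origin. MRPL39, as an example, averaged 43.2 ± 0.33 CPM in A375AR991 and 37.4 ± 2.25 CPM in A375 (SD, n = 3 in every group). It averaged 29.9 ± 0.69 CPM in CHL1AR991 and 29.6 ± 2.37 CPM in CHL1, where the libraries overlapped. Its group means had the order of those of PRMT5, the likeness for which it was picked.

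The targets of palbociclib and their cyclins were read in the same comparisons. CDK4 averaged 194 ± 2.76 CPM in A375AR991 and 213 ± 6.04 CPM in A375, and 199 ± 2.88 CPM in CHL1AR991 and 219.6 ± 15.1 CPM in CHL1 (SD, n = 3 each), and it did not pass in either line (adjusted p of 0.069 and 0.0531, edgeR). In CHL1 that value crossed the threshold with no low-count filter (adjusted p = 0.0285), with a minimum of 1 CPM (0.0455) and when blocked on replicate number (0.0405). It also crossed without CHL1 replicate 2 (-0.20, adjusted p = 0.0163). The resistant and control libraries of CDK4 did not overlap in either line, as for 42.8% of all genes tested in A375 and 36.9% in CHL1. CDK6 rose to 36.7 ± 4.58 CPM in CHL1AR991, against 14 ± 1.53 CPM in CHL1 (log2 fold change 1.39, adjusted p = 3.66e-06), and was not called in A375 (-0.09, adjusted p = 0.426). CCND1 and CCND3, which encode D-type cyclins, did not pass in either line, with log2 fold changes of -0.17 to 0.14. CCND1 passed in CHL1 with no low-count filter (0.0344) and without CHL1AR991 replicate 1 (0.033), and CCND3 in A375 without A375 replicate 1 (0.0266).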

How the data were processed

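RNA of 12 libraries, 3 in each of 4 groups, was sequenced after TruSeq preparation, per the labels' protocols. The deposited values are whole-number read counts per Ensembl gene in 2 tables, 1 per line, not normalised. Tools listed in the submitters' processing notes are cutadapt 1.7, CASAVA 1.8.2, HTSeq 0.5, TopHat2 and limma. Build and annotation are not given in the sources used, so gene order alone was taken from GENCODE release 29. Coordinates belong to the printed sequences only, which come from RefSeq (GRCh38.p14) and GENCODE. A375 has 33932 listed genes, 2484 of them without a symbol, and CHL1 has 32478, with 2284. All 10 members matched a RefSeq promoter. Reads of overlapping genes can be mixed, since strand was not marked.

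Within each line, resistant and control libraries were compared by edgeR 4.0.16 under R 4.3.3 (TMM factors, filterByExpr with a minimum count of 10, quasi-likelihood F-test, two-sided, Benjamini-Hochberg over all genes tested, called below 0.05). Differences between lines were contrasts of a 4-group fit to all 12 libraries. The 5 comparisons share libraries. Levels are CPM with 12-library TMM factors. Intervals are 95% intervals of the fit. The floor of 3 counts covers counting error only, because reads lacked molecular identifiers. Likeness used log2 CPM with a prior count of 2. Alternatives were RLE and upper-quartile factors, no filter, at least 1 CPM in 3 libraries, DESeq2 1.42.0, blocking on replicate number, 1 library left out, and the contrast from the 12-library fit. The fits were tested on simulated data. The rest used Python 3.11.15 with matplotlib 3.10.9, scipy 1.17.1, pandas 2.3.3 and numpy 2.4.6.

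The members and the lists of related genes were chosen with earlier results of these data known. Named genes were all 10 members, up to 4 called genes per list and line with the smallest adjusted p, 4 CDK4/6 pathway genes (CDK4, CDK6, CCND1 and CCND3), and the 3 genes most like PRMT5 and MDM4. CDKN2A, SMN1 and the cell type markers named were chosen after their values were seen.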

Additional observations from a re-analysis of the deposited data

Results flagged for a closer look

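These results differed between the lines by the interaction term of the 12-library fit, with edgeR's adjusted p below 0.05; each value is the log2 effect in A375 (A375AR991 minus A375) minus that in CHL1 (CHL1AR991 minus CHL1). Among the 10 members they were PRMT1 (0.73), CARM1 (-0.48) and MTAP (-0.33). Among the other methyltransferases and the Sm and SMN genes they were PRMT2 (-0.62), GEMIN7 (0.78) and LSM4 (-0.59). In the SAM and salvage list they were MRI1 (-0.57) and ADI1 (-0.56), and among readers SMNDC1 (-0.31), TDRD3 (-0.40) and PHF1 (-0.37). In the p53 list they were ZMAT3 (1.12), AEN (0.73), BAX (1.30), MDM2 (0.92), XPC (0.76) and SESN1 (0.99). The 9p21 genes ELAVL2 (1.801) and DMRTA1 (1.06) and the cell cycle genes CDK6 (-1.48) and CCND3 (-0.30) completed the set. The medians of the same difference over the 20 nearest tested genes were 0.46 for PRMT1, -0.45 for CARM1, 0.10 for MTAP and 0.23 for MDM2. They were -0.16 for PRMT2, 0.52 for GEMIN7, -0.42 for LSM4, -0.45 for MRI1 and -0.0080 for ADI1. For readers they were -0.56 (SMNDC1), -0.35 (TDRD3) and -0.09 (PHF1). For p53 genes they were 0.30 (ZMAT3), -0.0051 (AEN), 0.34 (BAX), 0.22 (XPC) and -0.03 (SESN1). The remaining medians were 0.13 (ELAVL2), 0.10 (DMRTA1), 0.14 (CDK6) and -0.12 (CCND3). The TDRD3 difference was lost in 7 of 12 fits that left out 1 library (adjusted p up to 0.0887), and that of CCND3 in 9 of 12 (up to 0.135). The CCND3 difference was also lost with RLE (0.061) and upper-quartile factors (0.0559), with a minimum of 1 CPM (0.0539) and with DESeq2 (0.0539). SMNDC1 and PHF1 were each lost in 1 of 12 (up to 0.0524 and 0.055).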

How the results depend on the processing

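Of 320 values for single members under settings other than leaving out a library, 299 kept their direction and side of the threshold, 9 crossed to called, 4 were lost and 8 turned in sign. The values that turned in A375 were CLNS1A (0.0027) and COPRS (0.00304) with upper-quartile factors and RIOK1 (-0.0023) with no filter. In CHL1, MDM4 turned with RLE factors (0.0013), upper-quartile factors (0.014), DESeq2 (0.0025) and the 12-library contrast (0.00055), and between the resistant lines WDR77 turned with upper-quartile factors (0.0200). None of these was called. The number of members called in CHL1 was 1 with the contrast from the 12-library fit, in place of 3, and 1 to 3 with 1 library left out; the cause was not tested. With 1 library left out, values also turned for CLNS1A in A375 (-0.0791 to 0.0134), RIOK1 in A375 (-0.0384 to 0.0406), MDM4 in CHL1 (-0.133 to 0.0790), the line differences of RIOK1 (-0.0920 to 0.0166), COPRS (-0.0306 to 0.0806) and CDK4 (-0.0132 to 0.0657), and CARM1 between the resistant lines (-0.00335 to 0.13). Among other named genes this held for PRMT6 (-0.011 to 0.0647) and GEMIN8 (-0.0119 to 0.0618) in A375, and MAT2A (-0.00091 to 0.0671) and TDRD3 (-0.0378 to 0.0450, and 0.0069 with upper-quartile factors) in CHL1. None of these was called either.

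Replicate numbers were shared by the groups of a line. Correlations of same-numbered deviations were 0.263, 0.274 and -0.0068 in A375 and 0.146, 0.0066 and 0.033 in CHL1, and not every library correlated best with its own number, so the numbers were not taken as pairing. With the replicate number as a block, 6307 genes were called in A375, 4305 in CHL1 and 5364 for the difference between the lines, in place of 5111, 3645 and 4536. The counts of members called under the block were 3 in A375, 3 in CHL1 and 4 for the difference. Counts of all members were far above the floor, the lowest sum over a group being 1807 (PRMT7 in CHL1). The count of p53 genes called was added as a result after seeing the data.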
